A study of Arabidopsis thaliana with 14 samples.

Results

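The genes ARR4, ARR3, ARR9 and ARR8 are 4 of the type-A ARABIDOPSIS RESPONSE REGULATORS (A-ARRs), chosen by their locus identifiers out of the 37899 nuclear genes and pseudogenes that RefSeq annotates on TAIR10.1 (27444 of them protein-coding). Their binding by type-B regulators (B-ARRs) was read from 10 chromatin immunoprecipitation sequencing (ChIP-seq) peak lists of Arabidopsis thaliana seedlings, 1 list per condition. A peak was given to a gene when its summit, the position of highest signal, lay inside the gene or within 1.5 kb of it. In cytokinin signaling, membrane histidine kinases pass phosphate through shuttle proteins to B-ARRs, transcription factors with a DNA-binding domain. A-ARRs carry a receiver domain without that DNA-binding domain and damp the signal, and many of them are primary response genes of the hormone, so that the output of the pathway acts back on its input. By sequence, ARR4 and ARR3 are close paralogues, and so are ARR9 and ARR8.

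All seedlings were 3 days old and used whole, so the cell types in which a site was bound cannot be told apart. One list, recognised by its title and its 10 µM dexamethasone (Dex) treatment of 4 h, comes from the truncated ARR1∆DDK, which was fused to YFP and to the glucocorticoid receptor, although the line named in its label is the full-length ARR1 one. In the other lists ARR1, ARR10, ARR12 and ARR14 were each expressed in Col-0 with a C-terminal Ypet tag from a large genomic clone added to the plant, and the chromatin was precipitated through the tag. Etiolated ARR1 seedlings gave a mock list. Light-grown ARR1 seedlings gave lists for mock treatment (DMSO), for 4 h of 10 µM 6-benzylaminopurine (6-BA, a cytokinin) and for 3 days of germination on 10 µM 6-BA. ARR10 and ARR12 seedlings gave a list each for 4 h of 10 µM 6-BA and for mock, and ARR14 seedlings gave a list for 3 days of 10 µM 6-BA. The ARR12 lists are called labelled ARR12 here, because the tables of the study fit them the other way round. Of the 14 samples recorded, 2 were control libraries (input DNA and IgG) and 2 were RNA records, and none of these 4 was used as a sample.

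Each list held between 1513 and 11499 peaks. For every peak it gave a peak score (−log10 of the MACS2 p-value) and a fold enrichment over input. The median peak score ran from 5.88 in the ARR1 mock list to 61.24 in the ARR14 list, so a score of 1 list cannot be set against a score of another without the rank of the peak in its own list. That rank is given as percent from the top, where a small value means a high peak. Each list combines at least 2 biological replicates into a single value per peak. There were therefore no replicate values, no error of a peak score could be computed, and no difference between lists was tested. Read counts were not in the lists, so the depth is unknown.

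The genes lie on separate parts of the genome. ARR4 (AT1G10470) runs from 3441988 to 3444360 on the minus strand of chromosome 1, and ARR3 (AT1G59940) from 22065617 to 22067233 on the same strand of the same chromosome. ARR9 (AT3G57040) runs from 21109059 to 21111567 on the plus strand of chromosome 3, and ARR8 (AT2G41310, RR3 in RefSeq) from 17221840 to 17224880 on the plus strand of chromosome 2. The distance from the annotated start to the next protein-coding gene upstream was 5206 bp at ARR4, 5339 bp at ARR9 and 5547 bp at ARR8, against a median of 944 bp over 27439 coding genes. Only 9.11%, 8.79% and 8.22% of coding genes had an upstream gap as long as those of ARR4, ARR9 and ARR8. ARR3 had 799 bp of such space, less than the median.

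The DNA under the summits that recurred between lists is shown here because the results turn on where these sites lie. Each line holds 200 bp of TAIR10.1 sequence from RefSeq around the median summit of a site, read 5′ to 3′ on the strand of the gene. Capitals mark matches, on either strand, of AGATHY, the B-ARR motif searched for here (AGAT followed by any base but G and then by C or T, where overlapping palindromic matches count once). All 6 stretches are intergenic. They are the ARR4 upstream site (chr1:3444666-3444865, minus strand), the ARR9 upstream site (chr3:21108772-21108971, plus strand), the proximal ARR8 site (chr2:17220529-17220728, plus strand), the distal ARR8 site (chr2:17218863-17219062, plus strand), and the sites downstream of ARR4 (chr1:3440833-3441032, minus strand) and of ARR3 (chr1:22064564-22064763, minus strand).
ARR4 upstream: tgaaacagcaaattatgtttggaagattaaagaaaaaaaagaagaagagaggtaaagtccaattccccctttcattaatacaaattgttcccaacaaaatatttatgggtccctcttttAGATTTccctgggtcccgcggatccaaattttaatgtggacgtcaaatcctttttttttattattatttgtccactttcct
ARR9 upstream: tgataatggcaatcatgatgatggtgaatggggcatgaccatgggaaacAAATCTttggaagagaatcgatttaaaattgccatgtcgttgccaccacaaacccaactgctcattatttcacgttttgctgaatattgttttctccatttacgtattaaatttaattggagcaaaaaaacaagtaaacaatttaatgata
ARR8 proximal: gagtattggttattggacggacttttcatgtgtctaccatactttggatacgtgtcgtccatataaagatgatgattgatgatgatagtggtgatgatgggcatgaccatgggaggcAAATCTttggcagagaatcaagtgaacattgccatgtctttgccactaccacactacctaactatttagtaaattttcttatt
ARR8 distal: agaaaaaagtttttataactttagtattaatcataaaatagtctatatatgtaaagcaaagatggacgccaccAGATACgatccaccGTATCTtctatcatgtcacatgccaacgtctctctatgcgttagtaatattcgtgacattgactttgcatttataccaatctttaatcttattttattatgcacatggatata
ARR4 downstream: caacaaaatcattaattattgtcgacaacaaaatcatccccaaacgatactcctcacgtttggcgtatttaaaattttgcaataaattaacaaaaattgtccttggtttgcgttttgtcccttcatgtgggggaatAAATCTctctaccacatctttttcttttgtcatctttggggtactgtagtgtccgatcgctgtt
ARR3 downstream: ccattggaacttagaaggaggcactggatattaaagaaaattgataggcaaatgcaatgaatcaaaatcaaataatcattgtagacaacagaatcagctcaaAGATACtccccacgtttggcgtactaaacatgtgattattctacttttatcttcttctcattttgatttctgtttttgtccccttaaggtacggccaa

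ARR4 was bound in every list and stood near the top of each. Its peak had a score of 187.88 with ARR1∆DDK and 98.28 in etiolated ARR1 seedlings. In light-grown ARR1 seedlings the score was 17.71 under mock, 112.5 after 4 h of 6-BA and 244.01 after 3 days, where it was the highest of 10904 peaks. With ARR10 it was 115.79 under 6-BA and 102.15 under mock, with labelled ARR12 28.83 under 6-BA and 111.82 under mock, and with ARR14 280.72, a value that only 1 other peak of that list, near the A-ARR gene ARR15, also reached. By rank the ARR4 peak was within the top 5% of all 10 lists, at a median of 0.0949% from the top and at worst 1.74%, in ARR1 mock. Its fold enrichment over input lay between 4.24 in ARR1 mock and 19.44 after 3 days of 6-BA.

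ARR9 followed closely in most lists. Its scores were 186.79 with ARR1∆DDK and 68.95 in etiolated ARR1 seedlings. In light-grown ARR1 seedlings they were 8.22 under mock, 87.7 after 4 h of 6-BA and 181.29 after 3 days. With ARR10 the score was 99.28 under 6-BA and 55.13 under mock, with labelled ARR12 27.6 under 6-BA and 35.21 under mock, and with ARR14 272.62. The 2 lists in which ARR9 fell outside the top 5% were ARR1 mock, at 15.8%, and labelled ARR12 mock, at 21.7%, and its median over the lists was 1.15%.

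ARR3 had lower peaks than its paralogue ARR4 in every list. Its scores were 50.94 with ARR1∆DDK and 20.6 in etiolated ARR1 seedlings, where that value was the lowest of the list. In light-grown ARR1 seedlings they were 5.31 under mock, 39.83 after 4 h of 6-BA and 33.53 after 3 days, and with ARR10 61.19 under 6-BA and 14.99 under mock. In the labelled ARR12 6-BA list ARR3 had no peak, against 27.2 in labelled ARR12 mock, and with ARR14 it reached 192.94. The ranks of ARR3 therefore spread over the whole range, with a median of 39.1% from the top, and only the ARR10 6-BA list placed it in the top 5%, at 4.76%.

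ARR8, by the same 1.5 kb rule, was in the top 5% of 2 lists. In 7 others its peak ranked between 12.3% (ARR10 mock) and 89.8% (ARR1 mock) from the top. Its scores were 139.55 with ARR1∆DDK and 273.77 with ARR14, in the top 4.56% and 0.222% of these lists. They were 28.62 in etiolated ARR1 seedlings, and 5.31 under mock, 23.3 after 4 h of 6-BA and 41.4 after 3 days in light-grown ones. The other scores were 27.86 in ARR10 mock, 13.24 with labelled ARR12 under 6-BA and 31.26 with labelled ARR12 under mock. No summit fell within 1.5 kb of ARR8 in the ARR10 6-BA list. The median rank over the 9 lists with a peak was 29.1%.

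Peaks near a gene are common in these lists, so the counts need that background. Of all genes, 12.4% had a summit within 1.5 kb in the ARR1∆DDK list, 5.65% in the etiolated list, and 13.1% under mock, 28.2% after 4 h and 40.2% after 3 days of 6-BA in the light-grown ARR1 lists. The share was 30.2% with ARR10 under 6-BA and 39.6% under mock, 13.7% with labelled ARR12 under 6-BA and 23.2% under mock, and 37.9% with ARR14. A peak in all 10 lists, as at ARR4 and ARR9, was found at 1.67% of genes, and a peak in at least 9, as at ARR3 and ARR8, at 4.07%. With a minimum score of 16, which corresponds to the p-value limit of the study, ARR4 kept its peak in 10 lists, ARR9 in 9, and ARR3 and ARR8 in 7 each. Such a peak was present in all 10 lists at 0.0765% of genes, in at least 9 at 1.23% and in at least 7 at 6.93%.

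**Figure D1:**
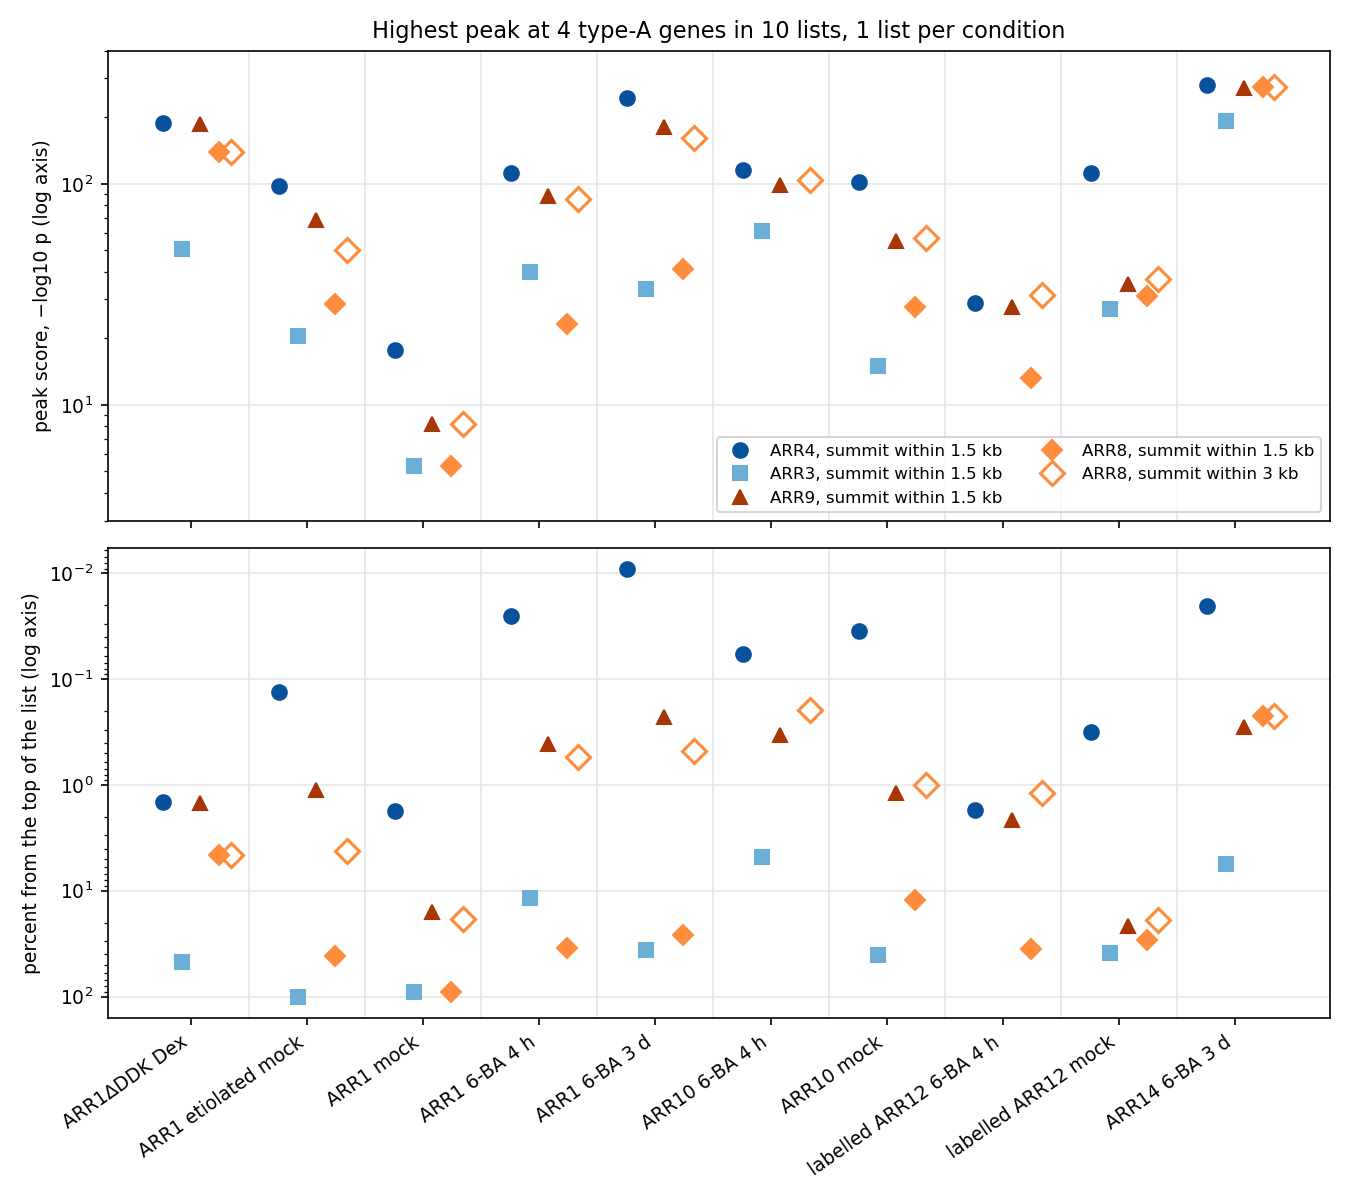
Peak score (upper panel, −log10 p, log axis) and rank (lower panel, percent from the top of the list, log axis, top of the list upward) of the highest peak at ARR4, ARR3, ARR9 and ARR8 in each of the 10 lists, 1 point per list; a missing filled symbol means no peak. ARR4 stays between 0.00917% and 1.74% from the top, and the open diamonds, ARR8 with summits up to 3 kb away, keep a ratio of scores, ARR9 over ARR8, between 0.881 and 1.37.

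The position of the summits also differed between the genes. At ARR4 the summit of the highest peak lay at a single site upstream of the gene in all 10 lists, at a median of 406 bp before the annotated start. Over the lists these summits spanned 91 bp (SD 30.4 bp). At ARR9 the summit was likewise upstream in all 10 lists, at a median of 187 bp before the start and within 150 bp (SD 45.3 bp). The leader annotated before the ARR9 start codon is 1000 bp long, so this site stood at -1187 bp relative to the start codon, compared with -1007 bp at ARR4. The non-coding RNA genes AT3G08815 and AT3G08825 also lie within 1.5 kb of the ARR9 site, and the lists cannot assign the peak to a gene.

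ARR3 had no upstream summit in any list. In 6 lists, the 4 of full-length ARR1, ARR10 under 6-BA and ARR14, the summit was downstream, at a median of 953 bp past the end of the gene and within 123 bp. In the other 3 lists with a peak, ARR1∆DDK, ARR10 mock and labelled ARR12 mock, it was inside the last exon. ARR4 had a downstream site as well, 1055 bp past its end, which was a separate summit in 4 lists with scores of 8.68 to 49.43. In all 10 lists the downstream ARR4 position was under a peak, in 5 of them the broad peak that covered the gene and had its summit upstream. The ARR3 downstream position was under a peak in 7 lists.

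At ARR8 the summits were scattered when read by the 1.5 kb rule, and in most lists the highest peak of the locus was beyond it. In 7 lists the highest peak had its summit at a site 2877 bp upstream of the annotated ARR8 start, and these 7 summits fell within 66 bp (SD 20.9 bp). The lists were ARR1 after 4 h and 3 days of 6-BA, etiolated ARR1, and both conditions of ARR10 and of labelled ARR12. The distal ARR8 site lies in the same 5547 bp gap, 2671 bp from SSL1, a protein-coding gene on the opposite strand that is transcribed away from it. Within 1.5 kb of the site there was only the non-coding RNA gene AT2G09245. In the other 3 lists the highest summits were nearer to ARR8. They were at the proximal site, 1211 bp upstream, with ARR1∆DDK and ARR14, and 1964 bp upstream in ARR1 mock.

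The distal ARR8 peaks were high. Their scores were 50.32 in etiolated ARR1 seedlings, and 85.19 after 4 h of 6-BA and 161.8 after 3 days in light-grown ones. With ARR10 they were 104.43 under 6-BA and 56.74 under mock, and with labelled ARR12 31.33 under 6-BA and 37.21 under mock. When summits up to 3 kb from the gene were taken, ARR8 had a peak in 10 lists, was in the top 5% of 8 of them, and its median rank was 1.11%, against 29.1% with 1.5 kb. Its median score became 71.0, against 28.62. The share of all genes with a peak in 10 lists became 3.11% under the 3 kb rule. Values of ARR4, ARR3 and ARR9 were the same under both rules.

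The proximal and distal ARR8 sites were mostly parts of the same peak. Both positions were under a peak in all 10 lists, and only in ARR1 mock were these separate peaks. In the ARR14 list a peak of 5526 bp covered both and had its summit at the proximal site, whereas in the ARR1 3-day list a peak of 5438 bp covered both and had its summit at the distal site. With ARR10 under 6-BA, the list in which ARR8 had no summit within 1.5 kb, a peak of 9078 bp covered both sites and 100% of the gene. Where a single peak covered both, the rank of ARR8 under the 1.5 kb rule depended on which of these positions held the summit. In ARR1 mock the summit was at the proximal site and the rank was still 89.8%.

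**Figure D2:**
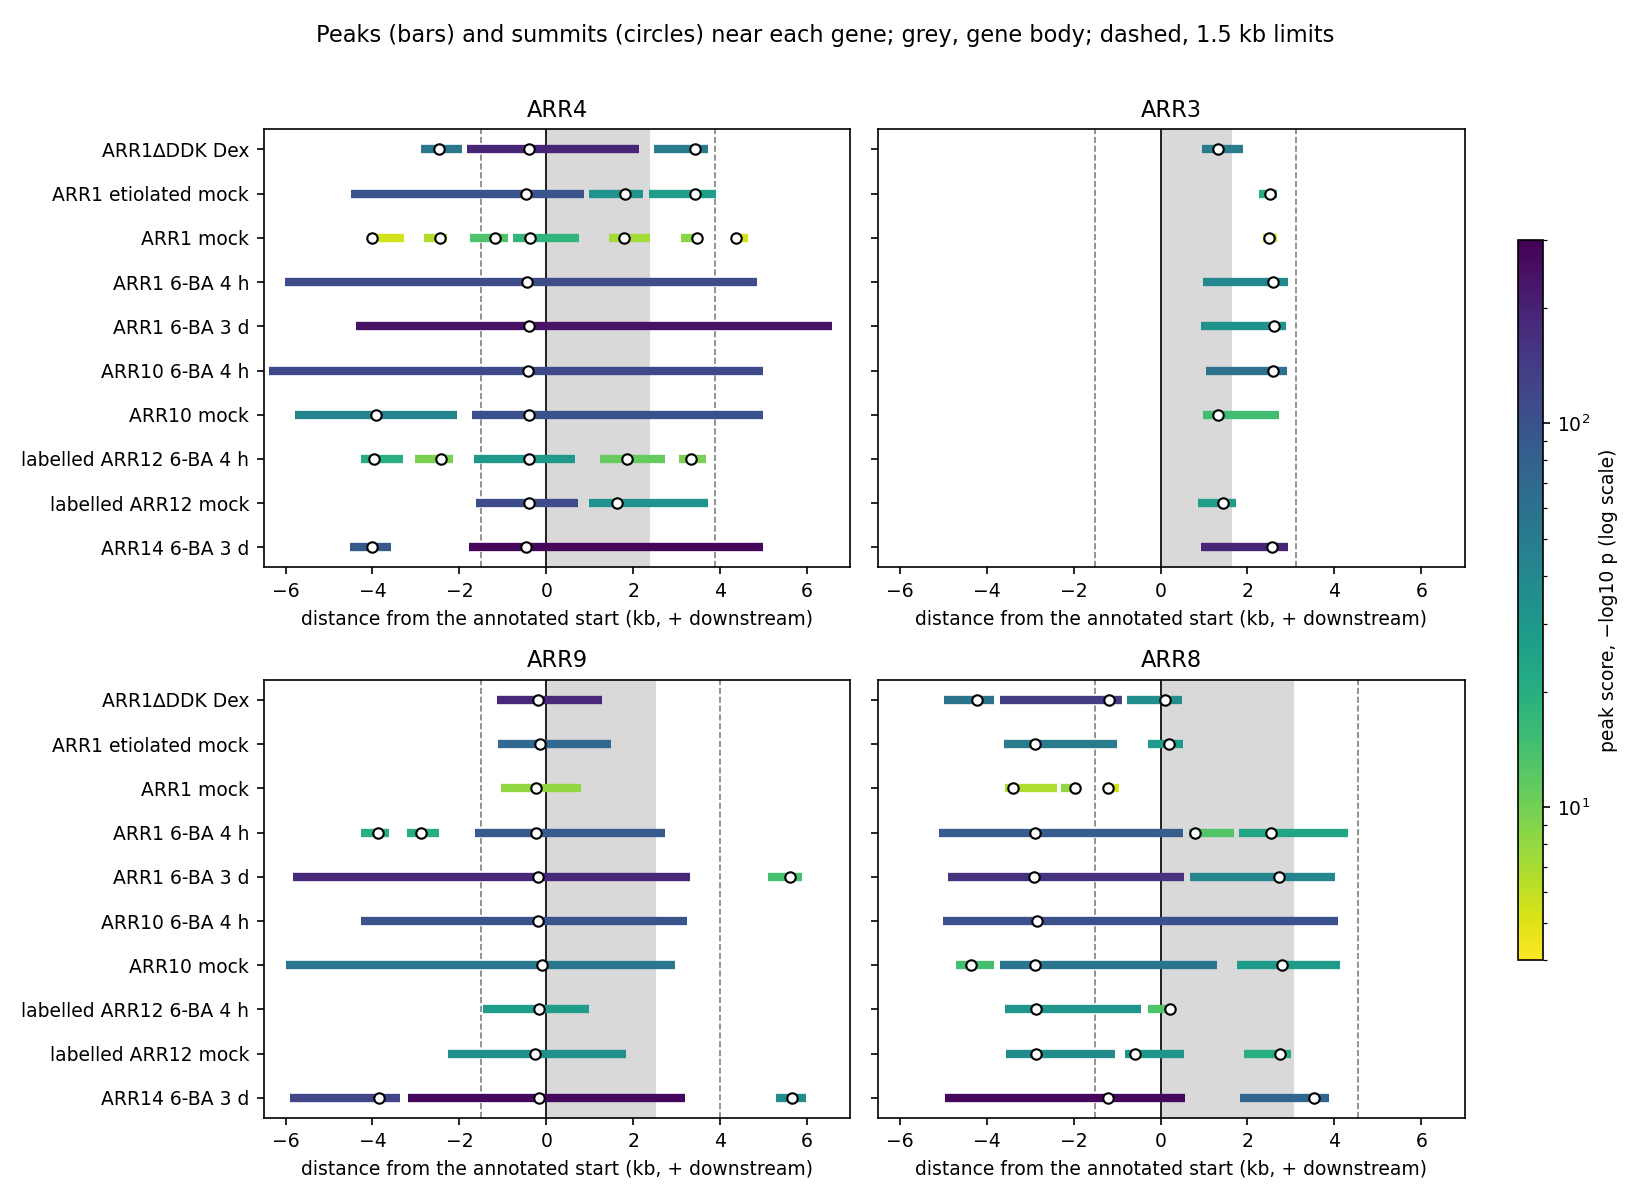
Peaks (bars, coloured by peak score on a log scale) and their summits (circles) around ARR4, ARR3, ARR9 and ARR8 in the 10 lists; the x axis is the distance in kb from the annotated start, grey marks the gene and dashed lines stand 1.5 kb beyond its ends. The summits of the highest ARR4 and ARR9 peaks align just upstream of the start, with lower peaks on either side in some lists, those of ARR3 lie in the last exon or past the end of the gene, and 7 lists have an ARR8 summit 2877 bp upstream, outside the dashed line.

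Setting each gene beside its paralogue in the same list needs no comparison of scores across lists. ARR4 was above ARR3 in 10 of 10 lists, under each of the rules for summits that was tried. Where both had a peak the score of ARR4 was higher by a median factor of 3.69, from 1.45 with ARR14 to 7.28 with ARR1 after 3 days of 6-BA. The log2 ratio of their fold enrichments had a median of 1.04 and ranged from 0.35 to 1.79. ARR9 was above ARR8 in 9 of 10 lists under the 1.5 kb rule, by a median factor of 1.98 over the 9 with a peak at both genes. Under the 3 kb rule ARR9 was above ARR8 in 5 lists and below it in 5, with ratios of their scores from 0.881 to 1.37. The log2 ratio of fold enrichment of ARR9 over ARR8 then had a median of -0.02 and lay between -0.14 and 0.26. As the pairs were chosen with these values known, these counts are descriptions without a test.

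**Figure D3:**
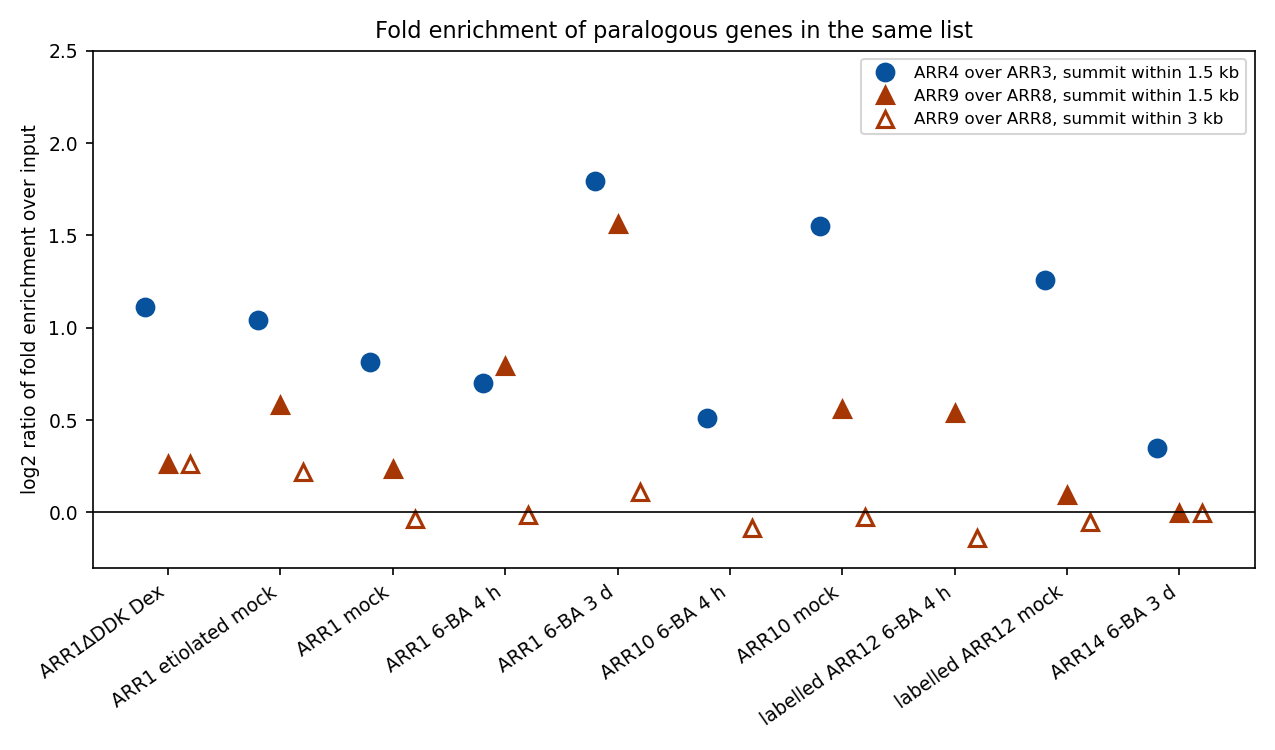
Log2 ratio of fold enrichment over input between paralogues in each list, for ARR4 over ARR3 (filled circles) and for ARR9 over ARR8 with summits within 1.5 kb (filled triangles) or 3 kb (open triangles); a missing symbol means that 1 of the genes had no peak. ARR4 over ARR3 is between 0.35 and 1.79 in 9 lists, while the open triangles lie between -0.14 and 0.26.

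Some of the bound DNA was similar within the pairs, in a way that the summit rule did not use. When the 200 bp of each recurrent site were searched against the whole genome with blastn, the best match of the ARR9 upstream site outside itself was the proximal ARR8 site, and the best match of the proximal ARR8 site was the ARR9 upstream site. They aligned over 89 bp with 74 identical bases (83.1% identity), in the same orientation relative to the genes, with a bit score of 87.8. The next match of either site had 42.8 bits for ARR9 and 48.2 bits for ARR8. The aligned stretch covers bases 12 to 98 of the ARR9 line and bases 79 to 166 of the ARR8 line above, and the AGATHY match of both lines lies inside it at the same aligned position. The proximal ARR8 site was under a peak in the same 10 lists as the ARR9 site.

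Likewise, the downstream sites of ARR4 and ARR3 were each the best match of the other in the genome. They aligned over 73 bp with 59 identical bases (80.8%), in the same orientation, with 63.5 bits, against 41 bits for the next match of the ARR4 site and 44.6 bits for that of the ARR3 site. The AGATHY match of the ARR3 site is in this stretch, and the aligned bases of ARR4 do not match the motif. ARR4 has its own AGATHY match outside the aligned stretch. Both positions were under a peak in 7 lists. The ARR4 upstream site and the distal ARR8 site had no such partner: their best matches, with 45.5 and 37.4 bits, were not at any of the 4 genes. These matches describe similar sequence only, and whether the similar bases are bound was not tested.

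AGATHY matches were frequent around the summits but also in the genome at large. At ARR4 and at ARR9, 10 of 10 windows of 200 bp around the summits held a match, at ARR3 9 of 9 and at ARR8 7 of 9. A window of 200 bp held at least 1 match at 60.3% (ARR1 mock) to 83.5% (ARR1∆DDK) of the summits of a list and in 59.5% of tiles of the nuclear genome. The ARR8 windows without a match were those at the 3′ end of the gene in the ARR1 3-day and ARR10 mock lists. Around the median summits, the ARR4 match was centred 22 bp and the ARR3 downstream match 5 bp to the 3′ side, and the ARR9 match 48 bp to the 5′ side. The distal ARR8 site held 2 matches, AGATAC and its reverse complement, 24 and 10 bp to the 5′ side of the summit. In the region between 1500 bp before and 100 bp after the annotated start there were 5 AGATHY matches at ARR4, 11 at ARR3, 9 at ARR8 and 8 at ARR9. The median over coding genes was 7. ARR3, the gene without an upstream summit, had the most, and 16.4% of coding genes had as many. Its region reaches beyond the 799 bp of upstream space into the neighbouring gene.

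Broad peaks were another property of the loci with high scores. The highest ARR4 peak was at least 5 kb wide in 6 lists and that of ARR9 in 4, and under the 3 kb rule that of ARR8 was as wide in 4. Peaks of that width made up 0.12% to 1.09% of a list. The widest, 11383 bp at ARR4 with ARR10 under 6-BA, was the widest peak of its list. ARR4 peaks covered the whole gene in 5 lists, and so did ARR9 peaks in 5. No ARR3 peak was wider than 2014 bp, and none covered the whole gene.

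The lists of treated and mock seedlings address whether cytokinin changed binding at these genes. In ARR1 seedlings after 4 h of 6-BA every member had a higher score than in mock, but so did 99.6% of the 3040 genes with a peak in both lists, at a median log2 ratio of 2.06. The log2 score ratios were 2.67 at ARR4, 2.91 at ARR3 and 3.42 at ARR9. Only 2.27% of genes had a ratio as high as that of ARR9. At ARR8 the ratio was 2.13 by the 1.5 kb rule, near the median, and 3.38 by the 3 kb rule, a ratio that 2.91% of genes reached. Both set different positions against each other, since the mock summit at ARR8 was at the proximal site (1.5 kb rule) or 1964 bp upstream (3 kb rule), and the 4 h summit was in the 3′ UTR (1.5 kb rule) or at the distal site (3 kb rule). With whole peaks within 1.5 kb the ratio at ARR8 was 4.00, which 0.298% of genes reached. This ratio too set different positions against each other, the proximal site in mock and the distal site after 4 h. Fold enrichment, for which the median log2 ratio over all genes was 0.01 and 50.5% of genes were higher, had log2 ratios of 0.26 at ARR4, 0.37 at ARR3, 0.62 at ARR9 and 0.60 at ARR8 (3 kb rule).

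After 3 days of 6-BA the ARR1 values of ARR4, ARR9 and, under the 3 kb rule, ARR8 lay further above mock than those of ARR3. All 4 genes had a higher score and a higher fold enrichment than in mock, as had 99.7% and 99.4% of the 3258 genes compared. Relative to mock, the log2 ratio of fold enrichment was 2.20 at ARR4, 2.48 at ARR9 and 2.34 at ARR8 under the 3 kb rule, with a median over all genes of 1.21 (1.24 under the 3 kb rule). As large a ratio was found at 3.74% of genes for ARR4, 0.859% for ARR9 and 1.87% for ARR8 under the 3 kb rule. ARR3 had a ratio of 1.22, which 49.1% of genes reached, and ARR8 under the 1.5 kb rule had 1.16. Both ARR8 ratios set different positions against each other. Under the 3 kb rule these were the distal site after 3 days and 1964 bp upstream in mock. Under the 1.5 kb rule they were the 3′ UTR and the proximal site. Between 4 h and 3 days, the ARR3 score went the other way from most genes: its log2 ratio was -0.25, while 89% of the 9405 genes compared had a higher score at 3 days. Its fold enrichment was higher at 3 days (log2 ratio 0.85), as it was for 99.9% of genes. The 3-day seedlings had germinated on the hormone, so duration and developmental history cannot be told apart.

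With ARR10 the score of ARR3 showed the largest response of the members. Its score was 61.19 under 6-BA and 14.99 under mock (log2 ratio 2.03), and 0.844% of the 10302 genes compared had a ratio as high, against a median of 0.44 over all genes, of which 79.6% were higher. The summit was at the downstream site under 6-BA and in the last exon under mock, and the mock peak covered both positions. ARR9 had 99.28 under 6-BA and 55.13 under mock (0.85), and ARR8 under the 3 kb rule 104.43 and 56.74 (0.88). At ARR4 the scores were close, with 115.79 under 6-BA and 102.15 under mock (0.18), and its fold enrichment was lower under 6-BA, 7.43 against 8.64 under mock, while 44.6% of genes had a higher one.

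The labelled ARR12 lists ran the other way. Over 3501 genes the median log2 score ratio of 6-BA over mock was -1.25, and 2.91% of genes were higher under 6-BA by score and 4.08% by fold enrichment. The ratio was -1.96 at ARR4 and -0.35 at ARR9, and at ARR8 it was -1.24 by the 1.5 kb rule and -0.25 by the 3 kb rule. By the 1.5 kb rule the ARR8 summits were at different positions, in the 5′ UTR under 6-BA and 577 bp upstream under mock. By the 3 kb rule both were at the distal site. ARR3 had a peak under mock only. If the labels of these 2 lists were exchanged, each sign would turn round, so no direction for ARR12 is drawn here.

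**Figure D4:**
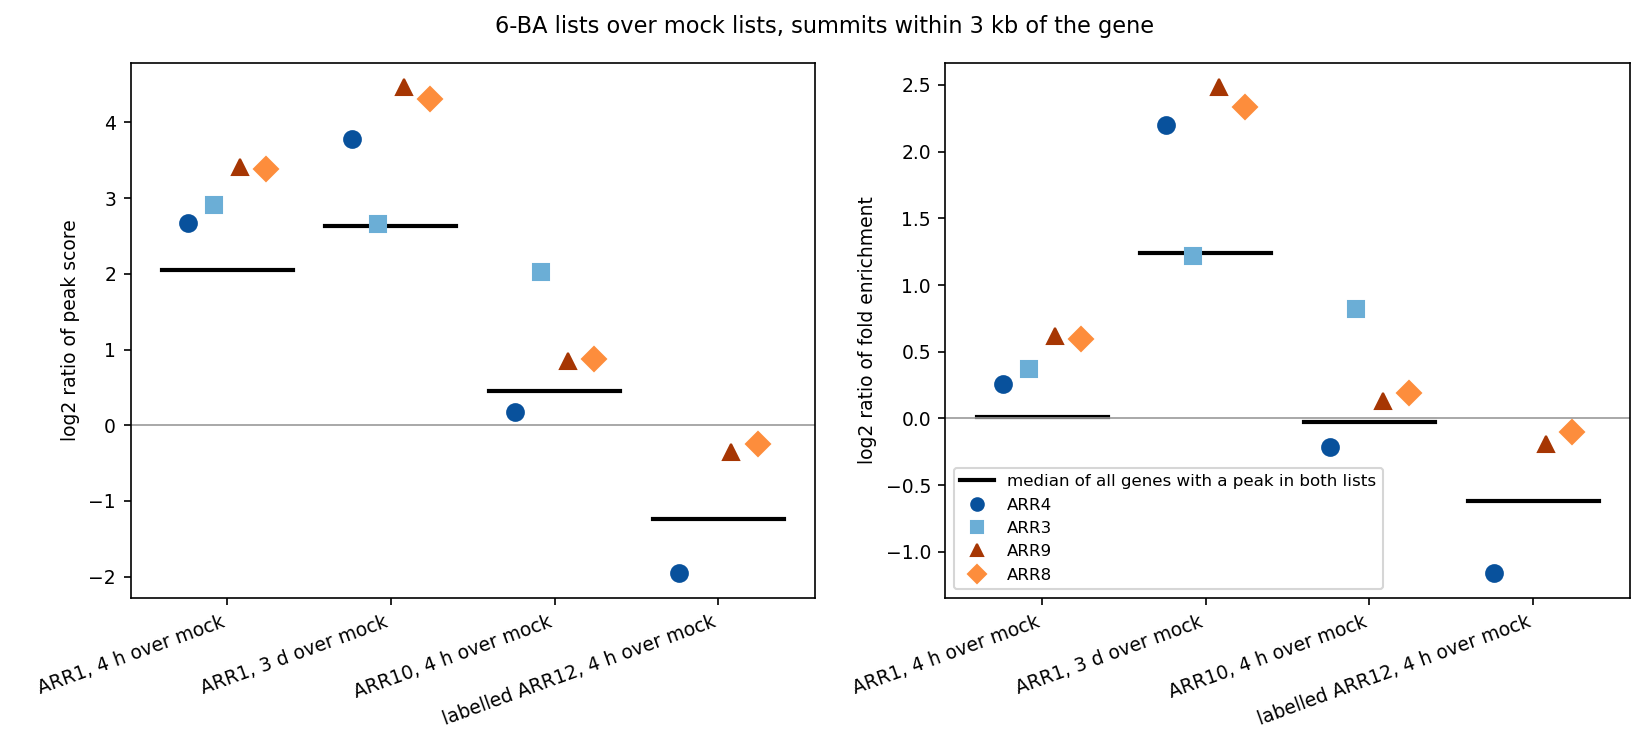
Log2 ratios of peak score (left) and of fold enrichment over input (right) between 6-BA and mock lists for ARR4, ARR3, ARR9 and ARR8, with summits up to 3 kb from the gene; black bars are medians over all genes with a peak in both lists, and ARR3 has no point for labelled ARR12. ARR9 and ARR8 lie beside each other in all 4 comparisons and above the bar in the ARR1 and ARR10 ones, while ARR4 is below it with ARR10; with the labelled ARR12 lists exchanged, all values of that comparison would change sign.

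Lists of etiolated seedlings and of other B-ARRs were compared in the same way, and what light or the protein contributed was not tested. In etiolated ARR1 seedlings, compared with light-grown mock, the log2 score ratio was 2.47 at ARR4, 1.96 at ARR3, 3.07 at ARR9 and 2.43 at ARR8. The median was 1.99 over 1079 genes, of which 99.6% were higher. The ARR8 value, by the 1.5 kb rule, set an etiolated summit in the 5′ UTR against the proximal site in mock. By the 3 kb rule, with the etiolated summit at the distal site and the mock summit 1964 bp upstream, it was 2.62. Fold enrichment was also higher at all 4 genes, with log2 ratios from 0.16 at ARR3 to 0.70 at ARR9, as at 75.6% of genes. A ratio as high as that of ARR9 was found at 1.67% of them. ARR14 and ARR1 could be set side by side after 3 days of 6-BA, where ARR3 had a score of 192.94 with ARR14 and 33.53 with ARR1. That log2 ratio of 2.52 was reached by 2.95% of 11879 genes, at a median of 1.13, with 95.8% of genes higher. The log2 ratio of fold enrichment was 0.96 at ARR3 and -0.48 at ARR4, and 64.9% of genes were higher. By score, ARR4 had a log2 ratio of 0.20 and ARR9 of 0.59, both below the median. ARR8 had 2.73 under the 1.5 kb rule but 0.76 under the 3 kb rule. Both ARR8 ratios set different positions against each other. The ARR14 summit was at the proximal site, and the ARR1 summit was in the 3′ UTR (1.5 kb rule) or at the distal site (3 kb rule). In the ARR14 list the score of ARR4 was 1.45 times that of ARR3, the lowest such ratio of the 9 lists.

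Truncated ARR1∆DDK, which lacks the receiver domain, gave the steepest contrast of the 4 genes at ARR8, but only under the 1.5 kb rule. Its score there was 139.55 with ARR1∆DDK and 23.3 with ARR1 after 4 h of 6-BA under the 1.5 kb rule, a ratio reached by 3.16% of 3763 genes. Under the 3 kb rule the ARR1 value was 85.19, and the ratio (log2 0.71) was reached by 66.3% of genes. The scores of ARR4, ARR3 and ARR9 were also higher with ARR1∆DDK, with log2 ratios of 0.74, 0.35 and 1.09. The median was 1.08, and 90.7% of genes were higher. At ARR3 the ratio set the last exon with ARR1∆DDK against the downstream site with ARR1. The ARR1 peak covered both of these ARR3 positions, whereas in the ARR1∆DDK list the downstream site was under no peak. Fold enrichment was higher at all 4 genes, as at 99.9% of genes. The lists also differ in treatment, Dex against 6-BA, and in tag. The paper describes ARR1∆DDK as driven by a cauliflower mosaic virus promoter, whereas full-length ARR1 came from a genomic clone. What each of these contributed was not tested. With ARR1∆DDK the ARR8 summit was at the proximal site. With ARR1 after 4 h it was in the 3′ UTR under the 1.5 kb rule and at the distal site under the 3 kb rule. In each of these lists a single peak covered the proximal and distal sites.

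The rest of the pathway gives these values a scale. All other 6 A-ARR genes had a peak in at least 7 lists, as 12.8% of genes had, and 3 of them in all 10, as 1.67% had. Among them ARR7 had the highest rank, at a median of 0.795% of genes from the top. ARR17 had the lowest, at 34.4%, and a maximum score of 118.29. These ranks are among genes, and a list without a peak counts as the bottom rank. They cannot be set against the peak ranks given above, which leave such lists out. By the same measure the medians were 0.105% at ARR4, 1.44% at ARR9, 34.9% at ARR8 and 43.6% at ARR3. ARR8 and ARR3 thus ranked below ARR17. None of the 6 other A-ARR genes had another number of lists under the 3 kb rule, unlike ARR8. AHK4, a cytokinin receptor, had a peak in 10 lists with scores up to 268.02, and AHK3, another receptor, in 7 with scores up to 58.12.

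The AHP genes code for the phosphate shuttle, except AHP6, a pseudo-phosphotransfer protein that inhibits the signal. The 6 AHP genes had peaks in 2 to 7 lists, 2 of them in at least 5 lists, and maximum scores from 30.08 (AHP2) to 98.4 (AHP1). Of 11 B-ARR genes, 5 had a peak in at least 5 lists, as 25.4% of genes had. The 11 genes ranged from ARR18 in 9 lists with scores up to 139.22 to ARR2, ARR13 and ARR19 with none. The type-C genes ARR22 and ARR24 had no peak in any list. These lists of genes were fixed with earlier results known and are counts only.

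The genes whose ranks over the 10 lists were most like those of the members were found by the mean absolute difference of rank among all coding genes, in percentage points. For ARR4 they were CKX5, which codes for a cytokinin-degrading oxidase (0.288), ACR8 (0.733) and AT2G25480 (0.783). For ARR9 they were ARR5, another A-ARR (2.40), ACR8 (3.83) and TUA3, a tubulin gene (3.98). ARR3 was nearest to AT1G69526 (7.91), AT4G29310 (8.24) and AT5G59790 (9.04). ARR8 had no close neighbour by the 1.5 kb rule, the nearest being HTA8 and AT2G38820, both at 14.9, and AT3G01435 at 15.6.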

How the data were processed

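The data were 10 peak lists from ChIP-seq, 1 per condition, each merged from 2 or more biological replicates by irreproducible discovery rate. Per the submitters' processing notes, the authors aligned reads with Bowtie 0.12.7 to TAIR10 and called peaks against input with MACS2 2.0.10. Each deposited list gives a score (10 times the next value), the fold enrichment over input as a ratio, the −log10 p-value, which is the peak score of the text, and other columns with peak edges, names and summit offset; the q-value column holds a placeholder and was not used. All authors' values were used as deposited, with no new normalization.

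Summits were assigned to 37899 nuclear genes of the RefSeq TAIR10.1 annotation when inside or within 1.5 kb, and the highest peak was kept for each gene and list. Ranks are percentages of all peaks of a list. With 1 list per condition, no SD, interval or test between conditions could be computed, and depth is unknown. Sites are summits within 150 bp of each other in several lists. Motifs were counted on both strands, and site windows were compared with the genome by blastn without masking. In tests on simulated data, 394 of 394 planted assignments and 200 of 200 planted motifs were recovered, with 0 wrong. Similar genes were ranked among coding genes sharing no summit, with no peak counted as 100.

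The named genes are the 4 members, the extremes of each pathway family, genes sharing a member summit and the 3 most similar genes of each member. The members and lists were chosen with earlier results of these data known. Alternatives were summits within 1 kb or 3 kb, whole peaks within 1.5 kb, minimum scores of 16 and 30, fold enrichment for score, ranks among genes, the summit nearest the start, exchanged ARR12 lists, the start codon, and other windows and motifs. Control libraries and RNA records were not analysed here, and 1 receptor gene is not reported here. Computations ran in Python 3.11.15 with pandas 2.3.3, NumPy 2.4.6 and Matplotlib 3.10.9, and sequence searches in BLAST 2.17.0.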

Additional observations from a re-analysis of the deposited data

Results flagged for a closer look

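For fold enrichment, 6-BA over mock pointed in opposite directions in different lines at 3 genes, with 1 list per condition, and these differences between lines were not tested. At ARR4 the log2 ratio was -0.22 with ARR10 and -1.16 with labelled ARR12, against 0.26 with ARR1. At ARR9 it was -0.19 with labelled ARR12, against 0.62 with ARR1. At ARR8 it was -0.64 with labelled ARR12, against 0.06 with ARR1, under the 1.5 kb rule. Both ARR8 ratios set different positions against each other, so neither measures a change at a single site. With ARR1 these were the 3′ UTR after 4 h and the proximal site in mock. With labelled ARR12 they were the 5′ UTR under 6-BA and 577 bp upstream under mock. Under the 3 kb rule both labelled ARR12 summits were at the distal site, and the ratio was -0.10. The median over all genes was -0.62 in the labelled ARR12 lists and 0.01 in the ARR1 lists. At ARR9 and ARR8 the opposite signs rest on the labelled ARR12 lists alone. With those lists exchanged the ratios are 1.16 at ARR4, 0.19 at ARR9 and 0.64 at ARR8, of the same sign as with ARR1, and only the opposite sign at ARR4 with ARR10 remains.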

How the results depend on the processing

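Of 93 alternative values for the main results, 77 kept their direction and stayed within 1.5 times of the reported value (summit positions within 1 SD over lists). With a minimum score of 30, the lists with a peak were 8 at ARR4 and 8 at ARR9, against 10 each. They were 5 at ARR3 and 4 at ARR8, against 9 each, or 7 each with the minimum of 16. The share of all genes that reach such counts at a minimum of 30 is not given here. These counts therefore show only how the number of lists depends on the minimum. With summits within 3 kb, and likewise with whole peaks within 1.5 kb, ARR8 had a median score of 71.0 and a median rank of 1.11%, and ARR9 was above ARR8 in 5 lists. Under the 3 kb rule, a combination chosen after seeing the data, ARR8 had a peak of at least 16 in 9 lists. The share of all genes for this combination is not given either. Exchanging the ARR12 lists turned the log2 ratios of fold enrichment to 1.16 at ARR4, 0.19 at ARR9 and 0.64 at ARR8. Measured from the start codon, the median summit was at -1007 bp for ARR4 and -1187 bp for ARR9. For ARR8 it was at -254 bp, and 186 bp from the annotated start. That ARR8 median is over 1.5 kb rule summits scattered from 1217 bp before to 2793 bp after the annotated start. In 7 lists the highest ARR8 peak had its summit at the distal site, 2877 bp upstream. In windows of 100 bp, 5 of the 10 ARR9 summits held AGATHY. Such a window held a match at 36.9% (labelled ARR12 mock) to 66.4% (ARR14) of the summits of a list. The share of genome tiles of that size was 36.2%. No paired analysis was possible because every list merges its replicates into 1. The unknown depth and the absence of replicate values limit every comparison between lists.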
